A study of Mus musculus with 12 samples.

Results

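The 10 genes described here encode the enzymes that make serine and that move single carbon units between serine, folate and formate: Phgdh, Psat1 and Psph (serine synthesis), Shmt2, Mthfd2, Mthfd1l and Aldh1l2 (mitochondrial folate arm), and Shmt1, Mthfd1 and Aldh1l1 (cytosolic folate arm). The rule for the set is the function of the gene and uses no measured value, although it was drawn up with earlier results of these data known, and each symbol was found in the count table, so that the set holds 10 of the 55536 genes listed. RNA was sequenced from B lymphocytes that had been isolated from the spleen by depletion with anti-CD43 beads and cultured for 48 h. Pdap1-deficient mice carried loxP sites around the second exon of both Pdap1 alleles and a Cre that is active in the B lineage, and control mice carried the same Cre with unmodified Pdap1. Both genotypes thus share the Cre allele, and deletion runs only in cells of the B lineage, from early stages on. The strain was C57BL/6, and the study used mice of both sexes aged 7 to 27 wk over all its experiments. Cells of 3 mice per genotype were stimulated with LPS (5 µg/ml) and IL-4 (5 ng/ml), which induces class switch recombination to IgG1. Cells of the same mice were stimulated with LPS (5 µg/ml), BAFF (10 ng/ml) and TGFβ (2 ng/ml), which induces switching to IgG2b. The 2 conditions are called IL-4 and BAFF-TGFβ below, and they make 12 libraries in 4 groups of 3.

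In the serine synthesis pathway, Phgdh oxidizes the glycolytic intermediate 3-phosphoglycerate, Psat1 transfers an amino group from glutamate to the product, and Psph removes the phosphate to release serine. The serine hydroxymethyltransferases, Shmt2 in mitochondria and Shmt1 in the cytosol, then pass a carbon of serine to tetrahydrofolate and leave glycine. Mitochondrial Mthfd2 oxidizes this carbon and Mthfd1l releases it as formate. Cytosolic Mthfd1 charges formate onto folate for the synthesis of purines and thymidylate. Aldh1l2 (mitochondria) and Aldh1l1 (cytosol) burn the carbon to carbon dioxide while making NADPH. Lymphocytes raise several of these enzymes when they are activated and begin to divide, and Phgdh, Psat1, Shmt2, Mthfd2 and Aldh1l2 are known targets of the stress-induced transcription factor Atf4.

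Total counts were between 9386667 and 15869143 in the IL-4 libraries and between 4579793 and 8303482 in 5 of the 6 BAFF-TGFβ libraries, while control mouse 1 had 69500640 with BAFF-TGFβ. Levels are given as CPM, the usual scaling of a count to its library total, with totals adjusted by TMM over the 12 libraries. Pdap1 was at 91.4 to 97.8 CPM in control cells and 23.3 to 29.9 CPM in Pdap1-deficient cells with IL-4. With BAFF-TGFβ it was at 80.3 to 199 against 23.0 to 26.5 CPM, the 199 being that deep library. By edgeR, Pdap1 passed as lower with IL-4 (log2 difference -1.82, adjusted p = 3.52e-05) but not with BAFF-TGFβ (-2.33, adjusted p = 0.0929). DESeq2 called it lower with BAFF-TGFβ (adjusted p = 1.96e-14). Summed levels of 8 B cell markers were 3492 to 3567 CPM in control and 3586 to 3964 CPM in Pdap1-deficient cells with IL-4, without overlap. With BAFF-TGFβ they were 2838 to 2994 against 2742 to 3072 CPM. Of these 8 markers 0 passed between genotypes in either stimulation. The 6 myeloid markers stood apart: their sum was 5.13 to 23.6 CPM in control cells and in Pdap1-deficient mouse 1, but 232 and 435 CPM in the cultures of Pdap1-deficient mouse 2 and 33.0 and 76.2 CPM in those of mouse 3, with the granulocyte gene Mpo at 0.243 CPM or less in every library. The 5 plasma cell markers summed to 622 to 674 CPM in control and 747 to 892 CPM in Pdap1-deficient cells with IL-4, without overlap (1 of 5 passed as higher), and to 449 to 527 against 475 to 527 CPM with BAFF-TGFβ (0 passed). The part of these marker shifts in the differences between genotypes was not tested. None of the 12 proliferation genes passed the test between genotypes in either stimulation. In cultures such as these, fewer cells of one type and less RNA per cell cannot be told apart.

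The arms of the pathway differed in level before genotypes were compared. Per kilobase of exon, control cells with IL-4 had the highest level for Shmt2 at 121 ± 6.48 CPM per kilobase (SD, n = 3). Phgdh at 91.1 ± 5.42, Psat1 at 79.0 ± 2.08, Mthfd1 at 72.6 ± 3.77, Shmt1 at 58.6 ± 0.820, Mthfd1l at 52.1 ± 0.438 and Mthfd2 at 46.7 ± 2.38 CPM per kilobase came next. Psph followed at 8.08 ± 0.264, Aldh1l2 at 0.479 ± 0.0538 and Aldh1l1 at 0.0317 ± 0.0103. This order takes Phgdh without its near-identical processed pseudogenes. With their counts added, Phgdh was at 377, 354 and 392 CPM in control mice with IL-4, against 230, 212 and 238 CPM without them. Its place against Shmt2 and Psat1 is therefore uncertain in both genotypes. In Pdap1-deficient cells with IL-4 the order was another: Shmt2 at 171 ± 28.5 and Psat1 at 156 ± 35.9 overlapped at the top, Phgdh was at 111 ± 20.4, Mthfd2 had moved up to 79.4 ± 15.6, and Mthfd1 at 51.0 ± 9.39 and Shmt1 at 35.3 ± 7.47 lay below Mthfd1l at 58.2 ± 7.60 CPM per kilobase.

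Between genotypes, most enzymes of serine synthesis and of the mitochondrial folate arm were higher in Pdap1-deficient cells, while of the 2 measurable cytosolic enzymes Shmt1 was lower with IL-4 and Mthfd1 passed the test in neither stimulation. With IL-4, 4 of the 9 tested members rose (Psat1, Psph, Mthfd2 and Aldh1l2) (Benjamini-Hochberg adjusted p under 0.05, quasi-likelihood test of edgeR), against 2.79% of the 15074 genes tested, and 1 fell (Shmt1), against 2.12%. The groups did not overlap, with every Pdap1-deficient library higher, for 5 members (15.5% of all genes tested) and with every one lower for 2 (16.1%). With BAFF-TGFβ, 5 members rose (Psat1, Psph, Shmt2, Mthfd2 and Aldh1l2), against 0.455% of 14079 genes, and none fell, against 0.0071%. At an unadjusted p under 0.05 all 9 tested members passed there, 7 higher and 2 lower (the cytosolic ones), beside 1486 of the 14079 genes. DESeq2 called 5 members higher and 0 lower, beside 131 genes higher and 41 lower over all genes. Here the groups of each of the 9 tested members were apart, 7 with Pdap1-deficient cells higher (9.55% of all genes tested) and 2 with these lower (9.08%). Aldh1l1 did not pass the filter on low counts in any comparison. Pdap1-deficient mouse 2, whose cultures carried the most myeloid RNA, had the lowest level of its group with IL-4 for 6 of the 7 members of the serine synthesis and mitochondrial arms. Without this mouse all 9 tested members passed with IL-4, 7 higher and 2 lower, and 4 passed with BAFF-TGFβ, where Shmt2 was lost. Calls over all genes then numbered 1459 of 15226 with IL-4 (775 higher, 684 lower), against 741 with all mice, and 33 of 14440 with BAFF-TGFβ. Without Pdap1-deficient mouse 1, whose myeloid sum was 6.77 CPM with IL-4, 6 members passed with IL-4 (4 higher, 2 lower). There 1759 of 15482 genes were called (936 higher, 823 lower). Without control mouse 1, the deepest library, 6 members passed with BAFF-TGFβ (Phgdh in addition), with 116 of 14585 genes called. With IL-4, 1 member (Aldh1l2) passed when control mouse 1, 2 or 3 or Pdap1-deficient mouse 3 was left out. In these fits 91, 69, 79 and 163 genes were called. With BAFF-TGFβ, Aldh1l2 alone passed without control mouse 3 or without Pdap1-deficient mouse 1, and Shmt2 and Aldh1l2 passed without Pdap1-deficient mouse 3. Genes called there were 19, 28 and 24, in the same order.

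**Figure D1:**
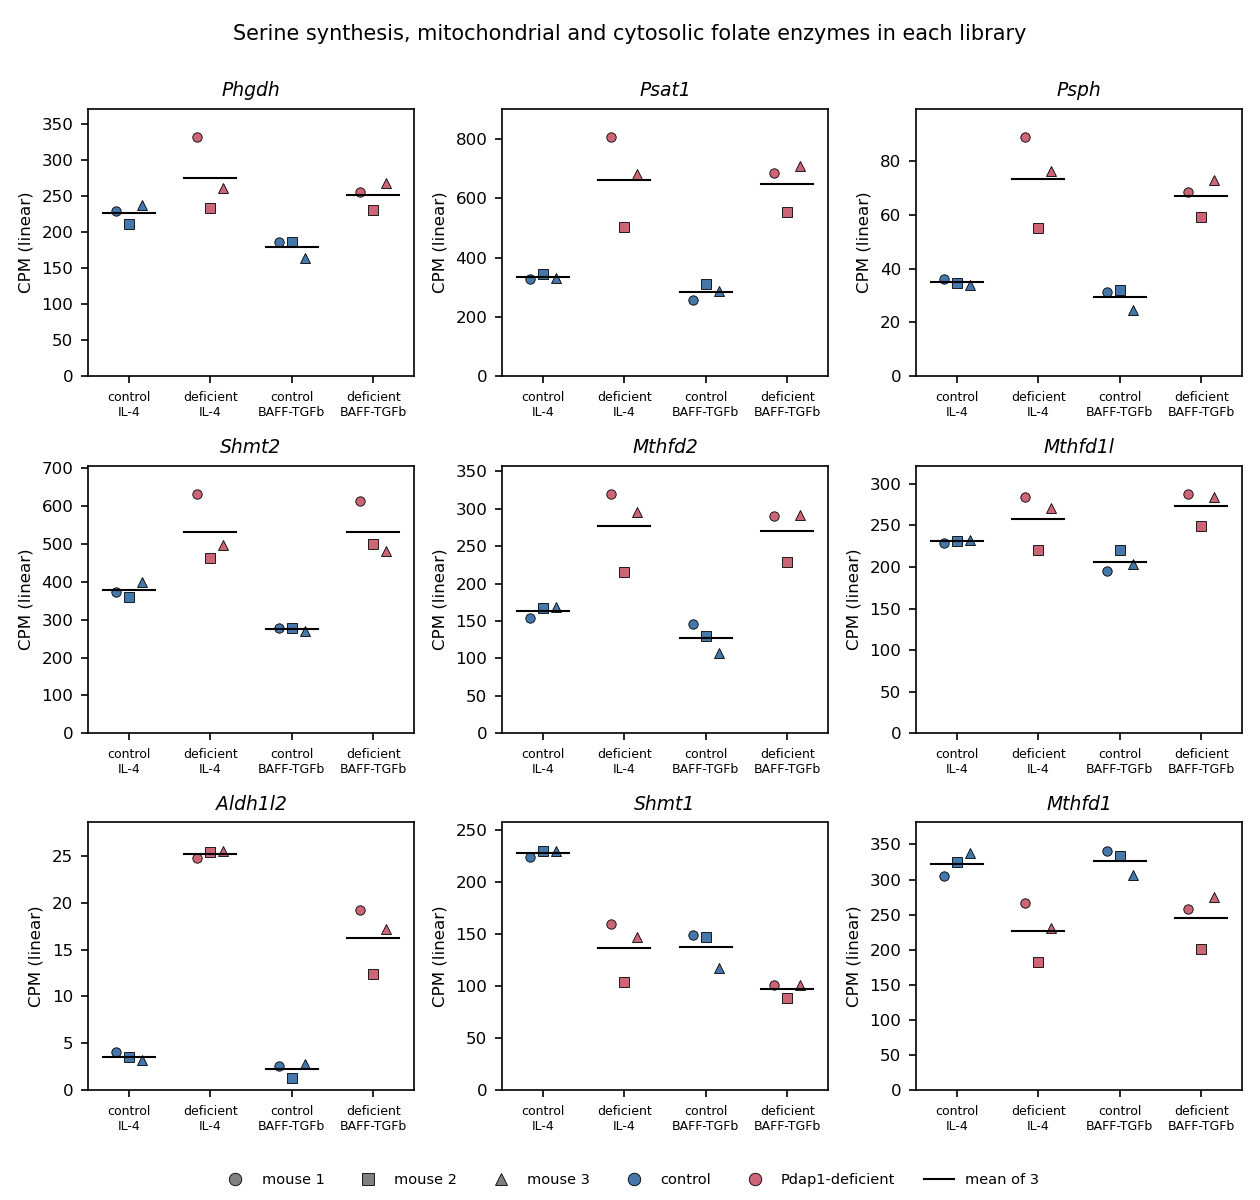
CPM of the 9 measurable enzymes in each of the 12 libraries (y axis, linear from 0), by genotype and stimulation (x axis), with a point per mouse and a line at the mean of 3. Aldh1l2 was below 5 CPM in each control library and above 12 in each Pdap1-deficient library, whereas Shmt1 and Mthfd1 lay lower in Pdap1-deficient than in control cells of the same stimulation.

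Psat1 (ENSMUSG00000024640, chr19:15904678-15947337 of GRCm38, minus strand), the aminotransferase, had the highest CPM of the serine synthesis genes. With IL-4 it was at 329, 346 and 333 CPM in control mice 1, 2 and 3 and at 806, 502 and 682 CPM in Pdap1-deficient mice 1, 2 and 3. With BAFF-TGFβ it was at 257, 312 and 287 CPM in control cells and at 685, 553 and 708 CPM in Pdap1-deficient cells. Every Pdap1-deficient library was above every control library, and the Pdap1-deficient mice differed more among themselves than the controls. The log2 difference was 0.98 ± 0.16 (SE) with IL-4 (adjusted p = 0.0113, edgeR, Benjamini-Hochberg) and 1.19 ± 0.14 with BAFF-TGFβ (adjusted p = 0.00518).

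Psph (ENSMUSG00000029446, chr5:129765558-129787449, minus strand), the phosphatase of the last step, was expressed at a lower level and moved with Psat1. With IL-4 it was at 36.2, 34.7 and 34.0 CPM in control mice and at 88.8, 54.9 and 76.2 CPM in Pdap1-deficient mice. In BAFF-TGFβ cultures the levels were 31.2, 32.1 and 24.7 CPM against 68.4, 59.3 and 73.0 CPM. The groups were apart in both stimulations. It rose by 1.06 ± 0.17 (SE) on the log2 scale with IL-4 (adjusted p = 0.00887, edgeR) and by 1.20 ± 0.14 with BAFF-TGFβ (adjusted p = 0.00705). Psph shares 452 exon bases, 10.4% of its exons, with Cct6a on the other strand, and Cct6a had 137489 counts to 7741 for Psph over all libraries. The strand setting of the counting is not given in the sources used here. The log2 difference of Cct6a was -0.39 with IL-4 and -0.27 with BAFF-TGFβ, opposite in sign to that of Psph, and did not pass the test.

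Phgdh (ENSMUSG00000053398, chr3:98313170-98339990, minus strand), which catalyses the committed step, differed less. With IL-4 it was at 230, 212 and 238 CPM in control mice and at 331, 233 and 261 CPM in Pdap1-deficient mice, and the groups overlapped. The BAFF-TGFβ libraries were at 186, 187 and 164 CPM in control mice and at 255, 230 and 268 CPM in Pdap1-deficient mice, with no overlap. The log2 difference was 0.27 (95% interval -0.03 to 0.58, adjusted p = 0.258, edgeR) and 0.50 (0.24 to 0.75, adjusted p = 0.156), so that neither passed the test. Read counts of Phgdh cannot be cleanly told from those of its processed pseudogenes. Gm7901, on chromosome 8, matched the longest Phgdh transcript at 98.7% over 1597 bases and had 23526 counts to 38007 for Phgdh, and the 9 processed pseudogenes with at least 95% identity together held 37.3% to 44.3% of the summed counts in each library. The log2 difference of Gm7901 was 0.35 with IL-4 and 0.63 with BAFF-TGFβ (adjusted p = 0.133 and 0.112, edgeR), and Phgdh with the counts of these pseudogenes added gave 0.30 and 0.55 (adjusted p = 0.212 and 0.131). The level of Phgdh is therefore uncertain, while its difference between genotypes was of like size with and without the pseudogenes.

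The ratio of Psat1 to Phgdh, per kilobase, was 0.870 ± 0.0744 (SD, n = 3) in control and 1.40 ± 0.136 in Pdap1-deficient cells with IL-4. It was 0.936 ± 0.113 and 1.50 ± 0.0895 with BAFF-TGFβ. The ratio of Psph to Phgdh was 0.0889 ± 0.00628 in control and 0.152 ± 0.0165 in Pdap1-deficient cells with IL-4, and 0.0938 ± 0.00651 and 0.153 ± 0.00439 with BAFF-TGFβ. The genotypes did not overlap in either ratio or stimulation, the later steps of serine synthesis standing higher against the first in Pdap1-deficient cells. These ratios are given without a test and take Phgdh without its pseudogenes.

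Aldh1l2 (ENSMUSG00000020256, chr10:83487450-83534140, minus strand), the mitochondrial formyltetrahydrofolate dehydrogenase, showed the widest gap between genotypes of the 9 tested members. With IL-4 it was at 4.03, 3.51 and 3.24 CPM in control mice and at 24.7, 25.4 and 25.5 CPM in Pdap1-deficient mice. With BAFF-TGFβ it was at 2.62, 1.34 and 2.80 CPM in control mice and at 19.2, 12.4 and 17.2 CPM in Pdap1-deficient mice. The 3 Pdap1-deficient mice were nearly level with IL-4, including mouse 2. It rose 6.93-fold with IL-4 (log2 difference 2.79 ± 0.15 SE, adjusted p = 1.68e-05, edgeR) and 7.09-fold with BAFF-TGFβ (2.83 ± 0.30, adjusted p = 0.00338). It passed the test in both stimulations under each of the 13 alternative settings tried. The control values rest on few reads, with 125 counts over the 3 IL-4 libraries and 199 over the 3 BAFF-TGFβ libraries. Aldh1l2 shares 1056 exon bases with D10Wsu102e on the other strand (38984 counts to 1626), and that gene's log2 differences of 0.17 and -0.35 did not pass the test.

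Shmt2 (ENSMUSG00000025403, chr10:127517123-127522444, minus strand), the mitochondrial serine hydroxymethyltransferase, was at 373, 360 and 400 CPM in control mice and at 632, 465 and 497 CPM in Pdap1-deficient mice with IL-4. In BAFF-TGFβ cultures the levels were 279, 278 and 271 CPM against 613, 499 and 482 CPM. The groups were apart in both, and the Pdap1-deficient mean was 531 CPM in each, against control means of 378 CPM with IL-4 and 276 CPM with BAFF-TGFβ. The log2 difference was 0.48 ± 0.13 (SE) with IL-4, short of the threshold (adjusted p = 0.0649, edgeR), and 0.95 ± 0.12 with BAFF-TGFβ (adjusted p = 0.0105). With IL-4 it passed in 4 of the 13 alternatives, among them DESeq2's Wald test (adjusted p = 0.0185) and the fit without Pdap1-deficient mouse 2 (adjusted p = 0.00274, edgeR).

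Mthfd2 (ENSMUSG00000005667, chr6:83305691-83325908, minus strand), the mitochondrial methylenetetrahydrofolate dehydrogenase, was at 153, 167 and 168 CPM in control mice and at 319, 216 and 296 CPM in Pdap1-deficient mice with IL-4. The BAFF-TGFβ libraries were at 146, 130 and 107 CPM against 291, 229 and 291 CPM. Every Pdap1-deficient library was above every control library. It rose by 0.76 ± 0.15 (SE) on the log2 scale with IL-4 (adjusted p = 0.0215, edgeR) and by 1.09 ± 0.15 with BAFF-TGFβ (adjusted p = 0.0143).

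Mthfd1l (ENSMUSG00000040675, chr10:3973118-4167081, plus strand), which releases formate from the mitochondrial pool, differed least in this arm. It was at 229, 231 and 233 CPM in control mice and at 284, 220 and 271 CPM in Pdap1-deficient mice with IL-4, where mouse 2 lay below all controls. With BAFF-TGFβ it was at 196, 220 and 203 CPM against 288, 250 and 285 CPM, with no overlap. The log2 difference was 0.15 (95% interval -0.11 to 0.42, adjusted p = 0.464, edgeR) and 0.42 (0.16 to 0.67, adjusted p = 0.261), and neither passed.

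Shmt1 (ENSMUSG00000020534, chr11:60788104-60811718, minus strand), the cytosolic serine hydroxymethyltransferase, passed as lower with IL-4. There it was at 224, 230 and 229 CPM in control mice and at 159, 104 and 147 CPM in Pdap1-deficient mice. In BAFF-TGFβ cultures the levels were 149, 147 and 117 CPM against 101, 88.4 and 101 CPM. Each Pdap1-deficient library was below each control library of its stimulation. It fell by 0.74 on the log2 scale with IL-4 (SE 0.15, adjusted p = 0.0261, edgeR). With BAFF-TGFβ the difference was -0.50 (95% interval -0.78 to -0.21), which did not pass (adjusted p = 0.233). Shmt1 shares 184 exon bases, 4.74% of its exons, with Smcr8 on the other strand (15892 counts to 26497). The part of Smcr8 reads in the values of Shmt1 was not tested.

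Mthfd1 (ENSMUSG00000021048, chr12:76255298-76319803, plus strand), the cytosolic trifunctional enzyme, was at 304, 325 and 338 CPM in control mice and at 266, 183 and 230 CPM in Pdap1-deficient mice with IL-4. The BAFF-TGFβ libraries were at 340, 333 and 306 CPM against 258, 201 and 275 CPM. The groups did not overlap in either stimulation and Pdap1-deficient cells were the lower ones. The log2 difference was -0.52 (95% interval -0.83 to -0.20, adjusted p = 0.0623, edgeR) and -0.41 (-0.71 to -0.10, adjusted p = 0.346), and neither passed the test. With IL-4 it passed in 4 of the 13 alternatives, among them DESeq2 (adjusted p = 0.009995). Among the Pdap1-deficient cultures Shmt1 and Mthfd1 were lowest in those of mouse 2, the ones with the most myeloid RNA, within each stimulation. Without that mouse the IL-4 differences were -0.56 for Shmt1 and -0.37 for Mthfd1 and both passed. The part of the myeloid RNA in these values was not tested beyond that.

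Aldh1l1 (ENSMUSG00000030088, chr6:90486427-90600203, plus strand), the cytosolic counterpart of Aldh1l2, had 27 counts over the 12 libraries and between 0 and 10 in each. Its mean was 0.143 ± 0.0465 CPM in control and 0.168 ± 0.227 CPM in Pdap1-deficient cells with IL-4, and 0.0936 ± 0.0831 and 0.132 ± 0.120 CPM with BAFF-TGFβ (SD, n = 3). It was removed by the filter on low counts. Without a filter, DESeq2 gave log2 differences of 0.24 ± 1.69 (SE) with IL-4 and 0.46 ± 2.21 with BAFF-TGFβ, so that no difference was detectable at this depth. The cytosolic arm in these cells thus consisted, in measurable RNA, of Shmt1 and Mthfd1.

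**Figure D2:**
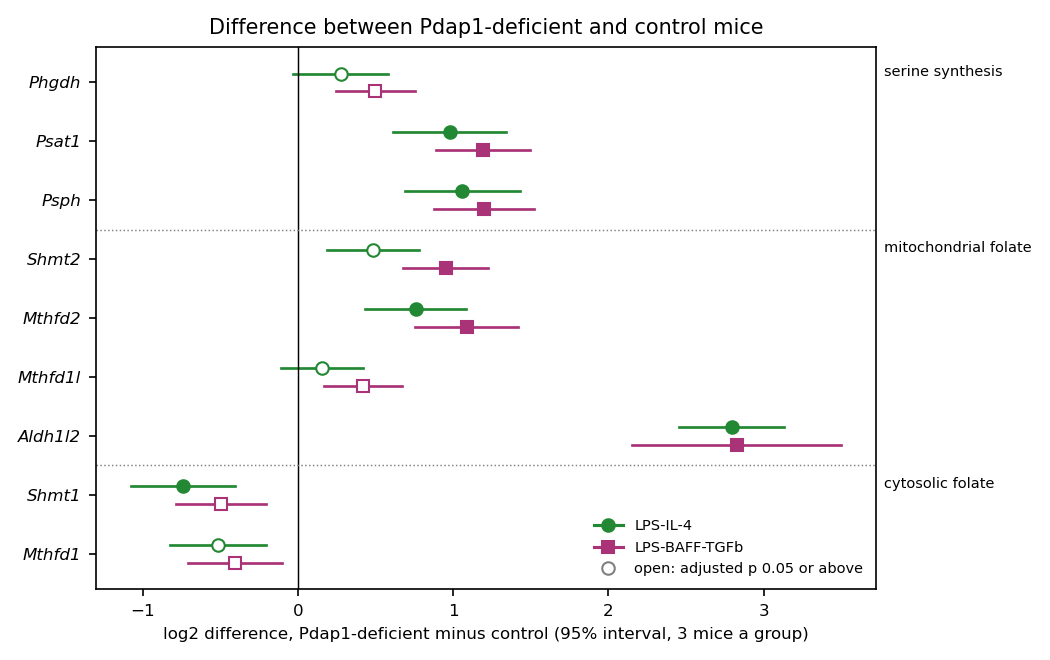
Log2 difference between Pdap1-deficient and control cells (x axis) for each tested enzyme (y axis, ordered by arm) with IL-4 (circles) and BAFF-TGFβ (squares), with 95% intervals from edgeR over 3 mice a group. Filled symbols passed an adjusted p of 0.05, and the values run from 2.83 for Aldh1l2 to -0.74 for Shmt1, with the cytosolic enzymes alone below 0.

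By arm, the median log2 difference with IL-4 was 0.98 for the 3 serine synthesis genes, 0.62 for the 4 mitochondrial genes and -0.63 for the 2 cytosolic genes tested, beside 0.02 for all genes. With BAFF-TGFβ these medians were 1.19, 1.02 and -0.45, beside 0.01 for all genes. The mitochondrial and the cytosolic isozymes thus lay on opposite sides of 0. The ratio of Shmt2 to Shmt1, per kilobase, was 2.08, 1.96 and 2.18 in control mice and 4.95, 5.57 and 4.22 in Pdap1-deficient mice with IL-4. With BAFF-TGFβ it was 2.35, 2.36 and 2.90 in control mice and 7.55, 7.06 and 5.93 in Pdap1-deficient mice. The lowest Pdap1-deficient value was thus above the highest control value in each stimulation. Pdap1-deficient mouse 2 had the highest ratio of its group with IL-4 and lay between mice 1 and 3 with BAFF-TGFβ.

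The ratio of Mthfd2 to Mthfd1, per kilobase, varied even less among mice. It was 0.642, 0.654 and 0.636 in control mice and 1.53, 1.50 and 1.64 in Pdap1-deficient mice with IL-4. With BAFF-TGFβ it was 0.546, 0.498 and 0.446 in control mice and 1.43, 1.45 and 1.35 in Pdap1-deficient mice. Per kilobase, Mthfd1 RNA exceeded that of Mthfd2 in every control culture, and the reverse held in every Pdap1-deficient culture. Of the summed level per kilobase of the 10 genes, the cytosolic arm made up 24.8% ± 0.524 (SD, n = 3) in control and 12.6% ± 0.474 in Pdap1-deficient cells with IL-4, and 25.5% ± 0.962 and 12.1% ± 0.684 with BAFF-TGFβ. The serine synthesis arm went from 33.6% ± 0.525 to 41.5% ± 1.13 and from 34.1% ± 1.10 to 40.7% ± 1.72, and the mitochondrial arm from 41.6% ± 0.350 to 45.9% ± 1.35 and from 40.4% ± 0.60 to 47.3% ± 2.35. Ratios and shares are given as a description, without a test. The shares take Phgdh without its pseudogenes.

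**Figure D3:**
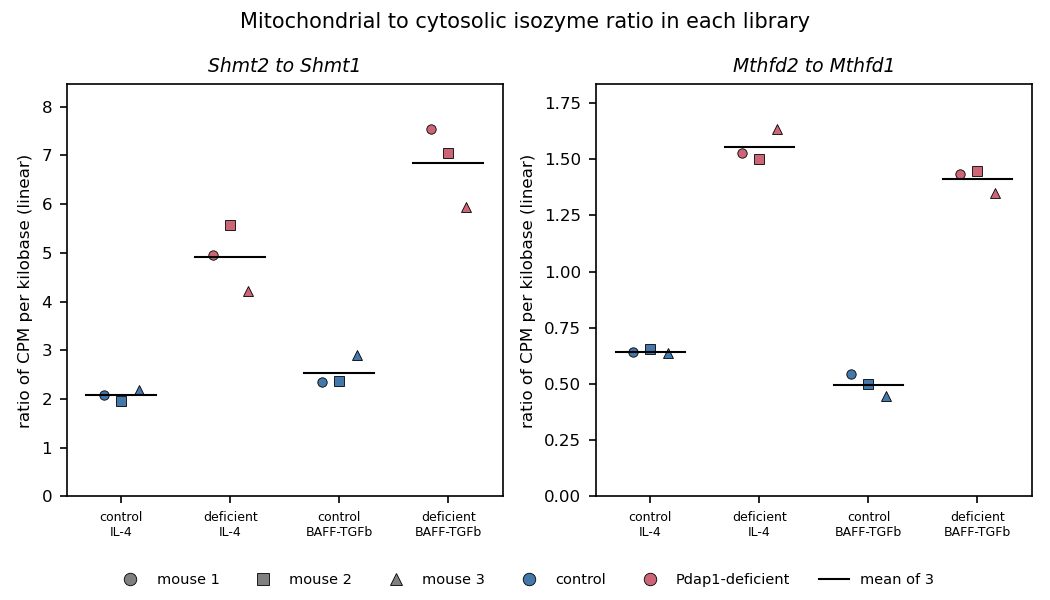
Ratio of the mitochondrial to the cytosolic isozyme (y axis, CPM per kilobase over CPM per kilobase, linear from 0) for Shmt2 to Shmt1 and Mthfd2 to Mthfd1 in each of the 12 libraries, with a point per mouse and a line at the mean of 3. Mthfd2 to Mthfd1 was between 0.446 and 0.654 in control libraries and between 1.35 and 1.64 in Pdap1-deficient libraries.

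Between stimulations, a member of each arm was lower with BAFF-TGFβ in control mice. Here 3 of the 9 tested members (Phgdh, Shmt2 and Shmt1) passed as lower, against 9.33% of the 14882 genes tested, and none was higher, against 9.99% (0 also at an unadjusted p under 0.05 and by DESeq2). Shmt1 fell by 0.72 on the log2 scale (SE 0.11, adjusted p = 0.00232, edgeR) from a mean of 228 ± 3.19 to 138 ± 17.9 CPM (SD, n = 3). Shmt2 fell by 0.45 (SE 0.08, adjusted p = 0.00631) from 378 ± 20.2 to 276 ± 4.35 CPM. Phgdh fell by 0.34 (SE 0.09, adjusted p = 0.0366) from 226 ± 13.5 to 179 ± 12.9 CPM. This call was lost in 5 of 11 alternatives. Among them were the mouse as a block (adjusted p = 0.115, edgeR), thinning to the smallest library and all 12 libraries in 1 fit. The difference of Mthfd1 was 0.02 (95% interval -0.18 to 0.22). In the same comparison 4 of the 5 plasma cell markers were lower with BAFF-TGFβ and 1 was higher (median log2 difference -1.56), and of the 8 B cell markers 3 were lower and 2 higher. The part of these shifts in the values of the members was not tested. Without control mouse 3 none of the 9 passed, and 1 (Shmt1) passed without control mouse 2.

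In Pdap1-deficient mice, 1 member, Aldh1l2, was lower with BAFF-TGFβ (log2 difference -0.62 ± 0.17 SE, adjusted p = 0.0407, edgeR), against 5.89% of the 14617 genes tested, and none was higher, against 5.57% (0 also at an unadjusted p under 0.05 and by DESeq2). Its mean went from 25.2 ± 0.397 to 16.3 ± 3.50 CPM (SD, n = 3), and the call was lost when mouse 1, 2 or 3 was left out. No member passed without mouse 1 or without mouse 3. Shmt1 had a difference of -0.49 (adjusted p = 0.0734), which passed with the mouse as a block (adjusted p = 0.000384, edgeR). Shmt2, Mthfd2 and Psat1 had differences near 0: Shmt2 differed by less than 0.01, with a 95% interval of -0.32 to 0.33, Mthfd2 by -0.03 (-0.39 to 0.32) and Psat1 by -0.03 (-0.42 to 0.36). Over the 9 tested members the median difference was -0.34 in control and -0.03 in Pdap1-deficient mice, beside 0.03 and -0.00 for all genes. Here 2 of the 5 plasma cell markers were lower (median -1.57), and 3 of the 8 B cell markers were lower and 1 higher. These comparisons share their libraries with those between genotypes.

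**Figure D4:**
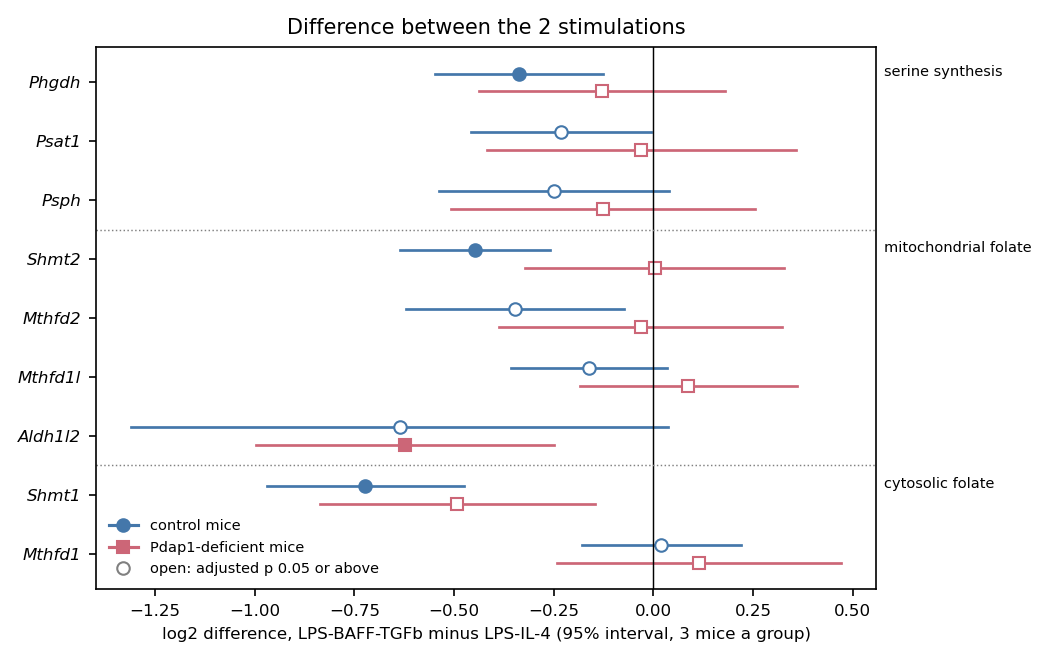
Log2 difference between BAFF-TGFβ and IL-4 (x axis) for each tested enzyme (y axis, ordered by arm) in control mice (circles) and Pdap1-deficient mice (squares), with 95% intervals from edgeR over 3 mice a group. Filled symbols passed an adjusted p of 0.05: Shmt1, Shmt2 and Phgdh at -0.72, -0.45 and -0.34 in control mice and Aldh1l2 at -0.62 in Pdap1-deficient mice.

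Whether the genotype difference itself depended on stimulation was tested as an interaction, with all 12 libraries in the fit. None of the 9 tested members passed (1 at an unadjusted p under 0.05, 0 by DESeq2), and of 15794 genes 0% were called by edgeR, with 755 at an unadjusted p under 0.05 and 6 called by DESeq2. The widest term was that of Shmt2, whose genotype difference was larger by 0.45 with BAFF-TGFβ (95% interval 0.07 to 0.83, unadjusted p = 0.0239, adjusted p = 0.983, edgeR). For Aldh1l2 the term was 0.01 with an interval of -0.54 to 0.55, so that a shift of that size in either direction would not have been seen. Genotype effects that passed in one stimulation and not in the other, as for Shmt1 and Shmt2, are therefore not shown to differ.

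Of 39 further genes that supply, carry or use folate carbon and serine, 29 were tested with IL-4, with a median difference of -0.13. Among those reported here, 4 fell, against 2.12% of all genes tested, and 24 did not pass by edgeR. DESeq2 called 3 of these 24 as well, Atic and Slc19a1 lower (adjusted p = 0.0139 and 0.0211) and Mthfs higher (adjusted p = 0.0229). Fpgs, which retains folates in the cell by adding glutamates, fell by 0.75 (adjusted p = 0.0124), and the purine synthesis enzyme Gart fell by 0.60 (adjusted p = 0.0384). Gcsh, the carrier protein of the glycine cleavage system, fell by 0.78 (adjusted p = 0.0438), and the S-adenosylhomocysteine hydrolase Ahcy fell by 0.58 (adjusted p = 0.0463). With BAFF-TGFβ none of the 26 reported here passed, against 0.455% of all genes tested higher and 0.0071% lower. There the differences were -0.66 for Fpgs, -0.22 for Gart, -0.31 for Gcsh and -0.17 for Ahcy. In control mice, 2 of the 29 tested were lower with BAFF-TGFβ than with IL-4, against 9.33% of all genes tested. These were the folate carrier Slc19a1, by -1.04 (adjusted p = 0.00212, edgeR), and the phosphatidylserine synthase Ptdss1, by -0.56 (adjusted p = 0.00291, edgeR). In Pdap1-deficient mice none passed, against 5.57% of all genes tested higher and 5.89% lower.

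Among transcription factors known to act on these enzymes, Atf4 was higher in Pdap1-deficient cells in both stimulations. It went from 284 ± 10.7 to 586 ± 115 CPM (SD, n = 3) with IL-4 (log2 difference 1.04 ± 0.15 SE, adjusted p = 0.00561, edgeR). With BAFF-TGFβ it went from 213 ± 17.5 to 484 ± 63.8 CPM (1.19 ± 0.13, adjusted p = 0.0039, edgeR). The part of Atf4 in the differences of the members, which were below 0 for Shmt1 and Mthfd1, was not tested. In control mice Atf4 was lower with BAFF-TGFβ by -0.41 (adjusted p = 0.0143). Myc differed between genotypes by -0.55 and -0.39 (adjusted p = 0.0584 and 0.404) and Nfe2l2 by 0.28 and 0.04 (adjusted p = 0.21 and 0.917), and neither passed by edgeR. DESeq2 called Myc lower with IL-4 (log2 difference -0.57, adjusted p = 0.0104).

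The genes whose levels went most like those of the leading member of each arm were named by Pearson's r of log2 CPM over the 12 libraries, among 10531 genes with a mean of at least 5 CPM. For Psat1 these were Arl14ep (r = 0.990), Phf10 (0.989) and the asparaginyl-tRNA synthetase Nars (0.985). For Shmt2 they were Aldh18a1 of proline synthesis (0.980), the branched-chain aminotransferase Bcat1 (0.979) and the amino acid transporter Slc7a5 (0.974). For Mthfd1 they were the translation initiation factor Eif4b (0.977), Thumpd1 (0.969) and the cap-binding protein Ncbp1 (0.968). The 12 points share their mice and fall into the 2 genotypes, so each r holds the gap between genotypes as well as the spread between mice, and it is given without a test.

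The promoters of the members were read for shared motifs. Of the 10 members, 9 had a window of 250 bases before to 50 after a start site in RefSeq (GRCm38.p6), and Aldh1l2 had none. There were 10 windows in all. Those of Psat1, Mthfd2, Shmt1 and Aldh1l1 lay wholly inside the gene spans given above, and start sites nearer the 5′ ends of these spans were not read. The sequences below run from 110 to 11 bases before the start site, 5′ to 3′ on the gene's strand, for a serine synthesis gene and for both isozyme pairs, and capitals mark CCAAT or its reverse complement ATTGG.
Psat1, chr19:15925070-15925169, minus strand: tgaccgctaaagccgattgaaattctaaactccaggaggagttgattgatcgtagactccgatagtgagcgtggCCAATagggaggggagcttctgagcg
Shmt2, chr10:127522455-127522554, minus strand: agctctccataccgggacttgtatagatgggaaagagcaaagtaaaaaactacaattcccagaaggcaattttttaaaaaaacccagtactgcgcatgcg
Mthfd2, chr6:83317615-83317714, minus strand: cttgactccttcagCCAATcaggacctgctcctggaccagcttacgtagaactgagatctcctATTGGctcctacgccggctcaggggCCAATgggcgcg
Shmt1, chr11:60811276-60811375, minus strand: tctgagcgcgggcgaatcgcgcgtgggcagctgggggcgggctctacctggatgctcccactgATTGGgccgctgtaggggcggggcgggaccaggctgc
Mthfd1, chr12:76255122-76255221, plus strand: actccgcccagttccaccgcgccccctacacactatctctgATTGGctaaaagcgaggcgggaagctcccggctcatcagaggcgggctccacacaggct

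CCAAT, on either strand, was in 7 of the 10 member windows, against 37.4% of all 32851 promoter windows. The 7 were those of Phgdh, Psat1 (1 of its 2 windows), Psph, Mthfd2, Shmt1, Mthfd1 and Aldh1l1, so genes with differences above and below 0 and a barely expressed one held it, while Shmt2 and Mthfd1l did not. TGACGT, the core of ATF and CREB sites, was in the windows of Psph and Mthfd1l, against 7.51% of all windows. TGATGNAA, a core of composite sites of ATF4 and C/EBP factors, and the E-box CACGTG were in none of the 10 windows, against 3.97% and 7.15% of all. These are matches of letters in short windows and say nothing on binding.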

How the data were processed

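RNA-seq libraries of 12 B cell cultures (2 genotypes, 2 stimulations, 3 mice a group) were analysed from the table of raw counts per Ensembl gene that the authors deposited. The authors trimmed reads with Trim Galore 0.6.1, mapped them to GRCm38 with STAR 2.6 and counted them with HTSeq 0.9.1 in the PiGx pipeline, per the labels and the Methods. The annotation release and strand setting are not given in the sources used here. The labels name the CH12 line and an mRNA kit for every sample, whereas the Methods give B lymphocytes from spleen, and total RNA depleted of ribosomal RNA, which was followed. A second, normalized table was not used. Genotype came from the labels and mouse numbers from the series description, by which a mouse gave both cultures.

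Symbols and exon lengths came from GENCODE M21. Each comparison was fitted across all genes with edgeR 4.0.16 in R 4.3.3 (filterByExpr, TMM, robust quasi-likelihood F test, Benjamini-Hochberg, threshold 0.05). Each difference is Pdap1-deficient minus control or BAFF-TGFβ minus IL-4. The SE is the log2 difference over the square root of F. Alternatives were DESeq2 1.42.0, its size factors in edgeR, no filter, a minimum of 10 counts in every library, thinning to the smallest library, all 12 libraries in 1 fit, the replicate number as a block, each mouse left out, and, added after seeing the data, Phgdh with its pseudogenes (blastn 2.17.0, identity of at least 95% over at least 100 bases). The steps were tested on simulated data. No library was a copy of another in its group. P-values of the genotype comparisons measure the spread between these mice. The main stimulation and interaction fits had no term for the mouse, so they left the pairing of cultures out. Their p-values mix the spread between and within mice. With the mouse as a block, genes called by stimulation went from 2874 to 1989 in control and from 1675 to 3854 in Pdap1-deficient mice. Pearson's r used a prior count of 2.

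Pairing by mouse comes from the series description. Deviations from group means correlated across genes by 0.579, 0.622 and 0.293 between the 2 cultures of the Pdap1-deficient mice and by -0.181, 0.341 and -0.0228 between those of the control mice. Between genotypes, equal numbers mark different mice. All 10 members are named, with the other pathway genes that passed in a genotype comparison, those that passed between stimulations (chosen after their values were seen), the regulators Atf4, Myc and Nfe2l2, and the 3 nearest genes per arm. A further pathway gene, counted in the numbers tested and in the medians, is not reported here. The members, lists and rule were chosen with earlier results of these data known.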

Additional observations from a re-analysis of the deposited data

How the results depend on the processing

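Over the alternatives tried, 449 values of single members kept direction and side of the threshold, 40 fell short of it, 19 newly passed it and 19 changed sign. No genotype difference changed sign. The members called with IL-4 were 5, with 7 by DESeq2 and 7 without a filter, and 1 to 9 with a mouse left out. Over all genes, DESeq2 called 1217 and the fit without a filter 1694 of 28723, against 741 of 15074 in the main fit. With BAFF-TGFβ they were 5, with a range of 1 to 6 (6 without a filter, where 257 of 29665 genes were called). By stimulation they were 3 in control mice (0 to 4 with a mouse left out, with 921 to 4009 genes called over all). In Pdap1-deficient mice 1 passed, with 2 by DESeq2, 2 without a filter and 2 with the replicate block. The main fit and these called 1675, 1796, 2152 and 3854 genes over all, in that order. With a mouse left out 0 to 1 passed there, with 346 to 2398 genes called. The term was 0 throughout. With a mouse left out the count of all genes called ran from 69 to 1759 with IL-4 (741 with all mice) and from 19 to 116 with BAFF-TGFβ (65), and the cause was not tested.

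With the replicate block, 5 and 5 members were called by genotype, 2 by stimulation in control mice (Phgdh lost) and 2 in Pdap1-deficient mice (Shmt1 gained). The block changed no other call of a member. Between genotypes the numbers mark different mice, so that block has no pairing behind it.

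Signs changed for 7 differences, which lay between -0.13 and 0.02. Between stimulations in control mice, Mthfd1 was at -0.00320 by DESeq2, -0.000200 without a filter and -0.0366 to 0.0873 with a mouse left out. In Pdap1-deficient mice, Shmt2 was at -0.0120 by DESeq2, -0.00289 with DESeq2 size factors, -0.0278 without a filter, -0.00374 with at least 10 counts in every library, -0.00386 when thinned and -0.0434 to 0.0510 with a mouse left out. There, with a mouse left out, Phgdh ran from -0.214 to 0.0371, Psat1 from -0.0938 to 0.111, Psph from -0.221 to 0.0381 and Mthfd2 from -0.0782 to 0.0457. For the genotype by stimulation term, Aldh1l2 was at -0.00838 without a filter, -0.0242 with at least 10 counts in every library, -0.184 when thinned and -0.189 to 0.186 with a mouse left out.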
